A study of Mus musculus with 384 samples.

Results

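G2/M and mitosis genes encode the machinery with which a cell enters mitosis, builds a spindle and divides. The 40 described here were taken as a list of gene symbols, matched to the Ensembl identifiers of the count tables, and all 40 were found among 46078 gene rows. They cover the cyclins and Cdk1, the mitotic kinases and the spindle checkpoint, the chromosomal passenger complex, partners of the anaphase-promoting complex, the kinetochore, kinesin motors, spindle-associated proteins, cytokinesis and chromosome structure. They were measured in GMPs (granulocyte/macrophage progenitors), from which marrow makes neutrophils and monocytes, as single cells sorted from mouse bone marrow into 96-well plates and sequenced with SMART-seq2, a full-length cDNA protocol without molecular identifiers.

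The BCR-ABL group was 3 sets of 96 wells, called BCR-ABL 1, 2 and 4 after the labels, from mice with BCR/ABL induction. These are C57Bl/6 Scl-tTA::TRE-BCR/ABL mice, in which a transactivator under Scl control switches on BCR-ABL, the fusion oncogene of chronic myeloid leukaemia, once doxycycline is withdrawn. They were bred on 20 mg/L doxycycline and taken off it at 5 weeks of age. The Control set was 1 set of 96 wells, from mice that the labels call control, with no genotype given. Both groups were C57Bl/6 and carry the labels of 20 mg/L doxycycline and induction at 5 weeks of age. Both were analysed 5 to 6 weeks after induction. All cells passed a gate on surface proteins: FcγR, CD34 and c-Kit present, Sca-1 and lineage markers absent. Whether the sets come from separate animals, and whether animals were pooled, is not in the labels, so p-values speak only of the spread from set to set, which can be technical in part.

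Most G2/M genes are silent early in the cell cycle and are switched on together as DNA replication ends. Cyclin B with Cdk1 then drives entry into mitosis, Plk1 and the Aurora kinases organise the spindle, and the anaphase-promoting complex with Cdc20 ends mitosis by marking cyclin B and securin for destruction. Their promoters are known for a cell cycle genes homology region, the CHR, and for CCAAT boxes, which are bound by the MuvB complexes and by NF-Y. GMPs divide quickly in healthy marrow and stop dividing as granulocytes mature, so these genes mark the cycling part of the compartment.

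Promoter sequences are shown because the same short motifs run through most of the list. RefSeq promoters of the GRCm38.p6 build, 250 bases before and 50 after the start of a gene, were at hand for 33 of the 40 members. Only the first listed start of each gene was used, for members and all genes alike, and it need not be the main one. The windows of Kif2c, Cdca8 and Cdca3, for instance, lie inside the annotated gene. A CHR, searched as TTTGAA or TTTAAA on both strands, was present in 28 of 33 (84.8%), against 27.8% of 27025 promoters of all genes. CCAAT was present on either strand in 24 of 33 (72.7%), against 37.9% of all promoters, and 18 members (54.5%) held at least 2 copies, against 12.2%. Both motifs stood together in 23 members (69.7%), against 10.9% of all promoters. The 6 sequences below read 5′ to 3′ on the strand of the gene, with CHR and CCAAT matches on either strand in capitals, which join where matches overlap. They are the promoters of Plk1, of Ube2c, Ccnb1 and Cdc20, of Ndc80, which had the smallest p of the list, and of Sapcd2, which had the largest fold change.
Plk1 promoter (chr7:122159185-122159484, plus strand): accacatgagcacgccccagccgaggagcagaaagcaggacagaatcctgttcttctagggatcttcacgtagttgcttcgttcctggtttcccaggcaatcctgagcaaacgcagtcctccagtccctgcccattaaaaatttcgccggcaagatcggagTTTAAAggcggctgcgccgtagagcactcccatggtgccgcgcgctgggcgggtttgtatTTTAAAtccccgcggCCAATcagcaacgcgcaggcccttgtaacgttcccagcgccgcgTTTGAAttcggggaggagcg
Ube2c promoter (chr2:164769679-164769978, plus strand): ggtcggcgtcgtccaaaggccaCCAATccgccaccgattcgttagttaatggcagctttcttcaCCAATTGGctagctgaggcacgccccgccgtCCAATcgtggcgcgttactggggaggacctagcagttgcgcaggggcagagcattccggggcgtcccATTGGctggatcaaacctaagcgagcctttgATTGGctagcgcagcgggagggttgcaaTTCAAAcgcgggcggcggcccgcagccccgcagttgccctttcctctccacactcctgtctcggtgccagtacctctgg
Ccnb1 promoter (chr13:100786437-100786736, minus strand): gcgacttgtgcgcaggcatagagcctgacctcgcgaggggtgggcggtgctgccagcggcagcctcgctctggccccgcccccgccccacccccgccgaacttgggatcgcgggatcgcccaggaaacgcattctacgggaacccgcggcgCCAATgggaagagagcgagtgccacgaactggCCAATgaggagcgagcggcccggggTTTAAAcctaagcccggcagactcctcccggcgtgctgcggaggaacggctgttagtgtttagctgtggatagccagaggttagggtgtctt
Cdc20 promoter (chr4:118437294-118437593, minus strand): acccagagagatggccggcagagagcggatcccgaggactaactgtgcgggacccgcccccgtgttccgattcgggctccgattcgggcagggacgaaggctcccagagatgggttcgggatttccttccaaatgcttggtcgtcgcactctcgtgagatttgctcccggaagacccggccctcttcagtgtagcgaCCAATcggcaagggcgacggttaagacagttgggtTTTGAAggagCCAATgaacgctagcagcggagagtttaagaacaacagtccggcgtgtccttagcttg
Ndc80 promoter (chr17:71526808-71527107, minus strand): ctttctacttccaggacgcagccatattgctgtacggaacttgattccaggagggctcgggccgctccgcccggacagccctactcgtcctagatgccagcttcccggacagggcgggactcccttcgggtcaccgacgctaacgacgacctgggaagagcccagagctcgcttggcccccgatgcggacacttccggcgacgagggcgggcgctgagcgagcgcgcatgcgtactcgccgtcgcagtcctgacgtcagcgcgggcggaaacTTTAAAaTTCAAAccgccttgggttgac
Sapcd2 promoter (chr2:25371785-25372084, plus strand): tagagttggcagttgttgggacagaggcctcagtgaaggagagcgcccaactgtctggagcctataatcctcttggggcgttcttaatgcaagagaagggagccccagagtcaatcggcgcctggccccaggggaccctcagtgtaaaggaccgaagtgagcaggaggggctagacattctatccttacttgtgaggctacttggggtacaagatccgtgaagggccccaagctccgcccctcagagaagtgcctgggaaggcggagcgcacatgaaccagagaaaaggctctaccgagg
With the start base counted as 0, the CHR nearest to the start lay at position -29 in Plk1 and Ube2c, -42 in Ccnb1, -18 in Cdc20 and 22 in Ndc80. The Ube2c window held 6 CCAAT matches, that of Ndc80 held 0, and neither motif was matched in the Sapcd2 window. That Sapcd2 window ends before the annotated start of the gene, so other promoter sequence of Sapcd2 was not searched. A match is a run of letters and was not tested as a binding site.

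Of 384 wells, 323 passed the limits of 50000 gene reads and 1000 detected genes: 76, 61 and 92 wells of BCR-ABL 1, 2 and 4, and 94 of Control. Kept wells had between 50434 and 4758711 reads on genes, and the sums over a set lay between 121.4 and 141.0 times 1e6. Fcgr3, Kit and the granule protein gene Mpo of the gated cells were detected at 10 CPM (counts per 1e6 gene reads) in at least 96.7% of wells of every set, while Cd34 had 146, 180 and 158 CPM in BCR-ABL 1, 2 and 4 and 440 CPM in Control. Xist, an RNA of female cells, reached 5 CPM in 75 of 76, 0 of 61 and 3 of 92 BCR-ABL wells and in 94 of 94 Control wells. These counts place Control with BCR-ABL 1 and apart from BCR-ABL 2 and 4, so sex was not balanced between the groups. No fit took this into account. Prg2, a gene of eosinophils, reached 100 CPM in 2 wells, both of BCR-ABL 4. Markers of other lineages were low: erythroid, megakaryocyte, lymphoid and dendritic marker lists summed to between 1.49 and 69.2 CPM in BCR-ABL 1, 2 and 4 and between 2.34 and 95.7 CPM in Control. The 10 macrophage markers summed to 33.5, 59.9 and 103 CPM against 31.7 CPM, and the 9 basophil, mast and eosinophil markers to 301, 456 and 1470 CPM against 361 CPM, with Ppbp and Gzmb at 0 in every set.

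The first comparison asked whether GMPs with BCR-ABL carry more mitotic RNA as a population, from reads summed over all kept wells of a set. Together the 40 members made up 5230, 5080 and 6430 CPM in BCR-ABL 1, 2 and 4, and 5710 CPM in Control. The Control value lay inside the range of the BCR-ABL sets. None of the members passed the test: edgeR's quasi-likelihood test called 0 of 40 members, and 0 of 20324 genes (0.0%), at an adjusted p of 0.05. At an unadjusted p under 0.05, 1 member was higher, against 3.79% of all genes, and 0 were lower, against 3.39%, or 1459 genes in either direction (7.18%). DESeq2 called 562 genes (2.77%) and 0 members. Fold changes had a median of -0.01 on the log2 scale over the members and 0.05 over all genes, with 20 members above and 20 below 0. Of all genes tested, 54.2% were above 0. BCR-ABL 4 was the highest of the 4 sets for 28 members, and BCR-ABL 2 the lowest for 21. All 3 BCR-ABL sets lay above Control for 7 members and below it for 7, and 26 members were mixed. Among all genes 51% had their BCR-ABL sets on 1 side of Control, 23.2% above and 27.8% below. Without BCR-ABL 4, 12 members lay above 0 (median -0.14). With every well thinned to the same depth before summing, so that wells weigh alike and shallow ones are left out, 32 members lay above 0, with a median of 0.14 against 0.03 over all genes, and edgeR again called 0. In sums over wells, a larger share of cells with a transcript and more RNA in each such cell cannot be told apart.

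**Figure D1:**
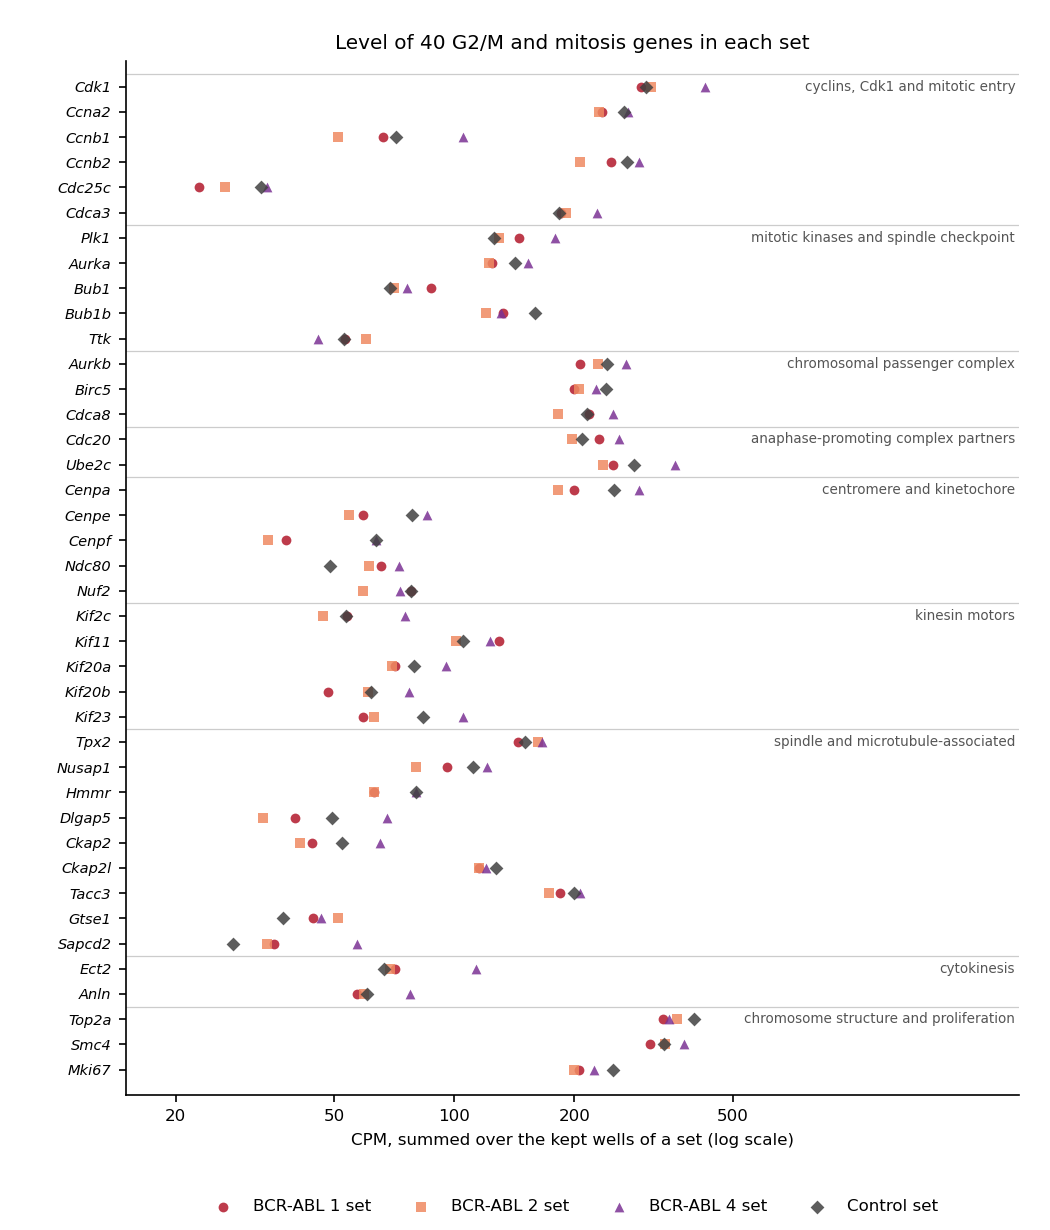
Level of each of the 40 G2/M and mitosis genes, as CPM summed over kept wells on a log axis, with 1 point per set and genes grouped by role. The purple triangles of BCR-ABL 4 are the rightmost point for 28 genes, and the grey diamonds of Control lie among the BCR-ABL points for 26.

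Of the genes of mitotic entry, Cdk1, the catalytic partner of the mitotic cyclins, stood at 293, 312 and 424 CPM in BCR-ABL 1, 2 and 4 and at 302 CPM in Control. Only BCR-ABL 4 stood well away from Control, and the log2 fold change was 0.20 (SE 0.24). Ccnb1, cyclin B1, stood at 66.2, 51 and 105 CPM against 71.3 CPM, with Control in the middle (log2 fold change 0.07, SE 0.42). Ccnb2, cyclin B2, stood at 247, 207 and 291 CPM against 271 CPM, again with the groups overlapping (-0.11, SE 0.21). Ccna2, cyclin A2, which acts from S phase to early mitosis, stood at 235, 230 and 273 CPM against 267 CPM (-0.10, SE 0.15). Per kilobase of exon, Ccnb2 was the most abundant member, with a mean level over sets of 166 CPM per kb, and Cenpf the least, with 3.22 CPM per kb. The other members of this role, Cdc25c, the phosphatase that activates Cdk1, and Cdca3, a factor that helps degrade Wee1, had log2 fold changes of -0.23 and 0.16. The pseudogenes Gm12856 and Ccnb1-ps are identical to Ccnb1 at 98.1% and 99.2% of aligned bases, and each held between 5.46 and 10.4 CPM, so the Ccnb1 level can depend on how such reads were assigned.

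Among the mitotic kinases, Plk1, which acts at centrosomes and kinetochores, stood at 145, 129 and 179 CPM in BCR-ABL 1, 2 and 4 and 126 CPM in Control. All 3 BCR-ABL sets were above Control, BCR-ABL 2 by little, with a log2 fold change of 0.28 (SE 0.22, edgeR unadjusted p 0.267). Aurka, the kinase of spindle poles, stood at 124, 122 and 153 CPM against 142 CPM, with Control inside the BCR-ABL range. Bub1b, which encodes the checkpoint protein BubR1, went the other way: it stood at 132, 120 and 131 CPM against 159 CPM. All 3 sets were below Control, and the log2 fold change was -0.30 (SE 0.14, edgeR adjusted p 0.762). Its partner Bub1 lay above Control in all 3 sets (0.20), and Ttk, the kinase that starts checkpoint signalling, was mixed (0.02).

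The chromosomal passenger complex holds the kinase Aurora B, survivin and borealin. Aurkb stood at 206, 229 and 270 CPM in BCR-ABL 1, 2 and 4 and 242 CPM in Control, on both sides of Control. Birc5, which encodes survivin, stood at 199, 205 and 226 CPM against 240 CPM, below Control in all 3 sets (log2 fold change -0.17, SE 0.14). Cdca8, borealin, had a log2 fold change of 0.03. Of the partners of the anaphase-promoting complex, Cdc20, its activator and the target of the spindle checkpoint, stood at 231, 197 and 259 CPM against 209 CPM, and the groups overlapped. Ube2c, the ubiquitin-conjugating enzyme of the complex, differed by 0.01 on the log2 scale.

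The kinetochore genes held the smallest p and the lowest fold change of the list. Ndc80, a microtubule-binding subunit of the outer kinetochore, stood at 65.5, 61.2 and 72.5 CPM in BCR-ABL 1, 2 and 4 and at 48.7 CPM in Control. All 3 BCR-ABL sets were above Control by more than the spread between them. The log2 fold change was 0.47 (SE 0.18, 95% interval 0.00 to 0.93), with an edgeR unadjusted p of 0.0498 and an adjusted p of 0.695, so it did not pass the test over all genes. A related pseudogene, 2700099C18Rik, at 92.7% identity over 763 bases, stood at 21.4, 19.2 and 29.4 CPM against 20.1 CPM. Nuf2, the partner of Ndc80 in the same complex, did not share its direction (-0.13). Cenpf, a large kinetochore and nuclear matrix protein, stood at 37.7, 34 and 63.6 CPM against 63.7 CPM. It had the lowest log2 fold change of the list, -0.48 (SE 0.39), with BCR-ABL 4 at the Control level. Cenpa, the centromeric histone, and Cenpe, a kinetochore motor, had log2 fold changes of -0.15 and -0.23.

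The 5 kinesins, which slide, depolymerise or bundle spindle microtubules, lay between -0.13 for Kif23 and 0.19 for Kif11, with 3 of 5 above 0. Among 9 spindle-associated genes, Sapcd2, which is known to orient the spindle in polarised cells, stood at 35.3, 33.9 and 56.9 CPM in BCR-ABL 1, 2 and 4 and 27.8 CPM in Control. It had the highest log2 fold change of the list, 0.61 (SE 0.37, edgeR unadjusted p 0.162), and BCR-ABL 4 was far above the other sets. Gtse1, a microtubule-binding protein of G2 and S phase, stood at 44.1, 51 and 46.2 CPM against 37.2 CPM, above Control in all 3 sets (0.36, SE 0.19). Hmmr, a hyaluronan-binding spindle protein, stood at 62.7, 62.7 and 80.1 CPM against 80.3 CPM, with BCR-ABL 4 at the Control level. The other members of this role lay between -0.15 (Nusap1) and 0.09 (Tpx2).

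In cytokinesis, Ect2, which activates RhoA at the cleavage site, and Anln, the scaffold anillin, had log2 fold changes of 0.35 and 0.12. Top2a, which untangles sister chromatids, stood at 333, 361 and 345 CPM in BCR-ABL 1, 2 and 4 and 400 CPM in Control, and Mki67, the coat of mitotic chromosomes known as Ki-67, at 205, 199 and 224 CPM against 250 CPM. Both were below Control in all 3 sets, with log2 values of -0.19 (SE 0.13) for Top2a and -0.24 (SE 0.14) for Mki67, and neither passed the test. Smc4, a condensin subunit, differed by 0.04. A wider list of 60 other mitotic genes gave similar counts: 24 were above and 36 below 0, with a median log2 fold change of -0.05, 0 called and 1 lower at an unadjusted p under 0.05. That gene was Racgap1, a partner of Kif23 in the central spindle, at 117, 106 and 109 CPM against 151 CPM. The 34 S phase genes had a median of -0.12, with 13 above 0.

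The picture changed when wells, not reads, were counted. For this each well was thinned to 674952 reads, which kept 65, 54 and 81 BCR-ABL wells and 90 Control wells. A well was called mitotic-high if at least 20 of the 40 members reached 10 CPM. This is a cut on a continuous range and marks neither a cell type nor a cell cycle phase. Mitotic-high wells made up 73.8% of BCR-ABL 1 (exact 95% interval 61.5 to 84), 75.9% of BCR-ABL 2 (62.4 to 86.5) and 77.8% of BCR-ABL 4 (67.2 to 86.3), and 55.6% of Control (44.7 to 66). The 3 BCR-ABL sets lay close together, at 75.8 ± 1.97% (SD, n = 3), and 20.3 points above Control. In an exact two-sided permutation test over the 4 sets the p was 0.25, the smallest that 3 sets against 1 can give.

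**Figure D2:**
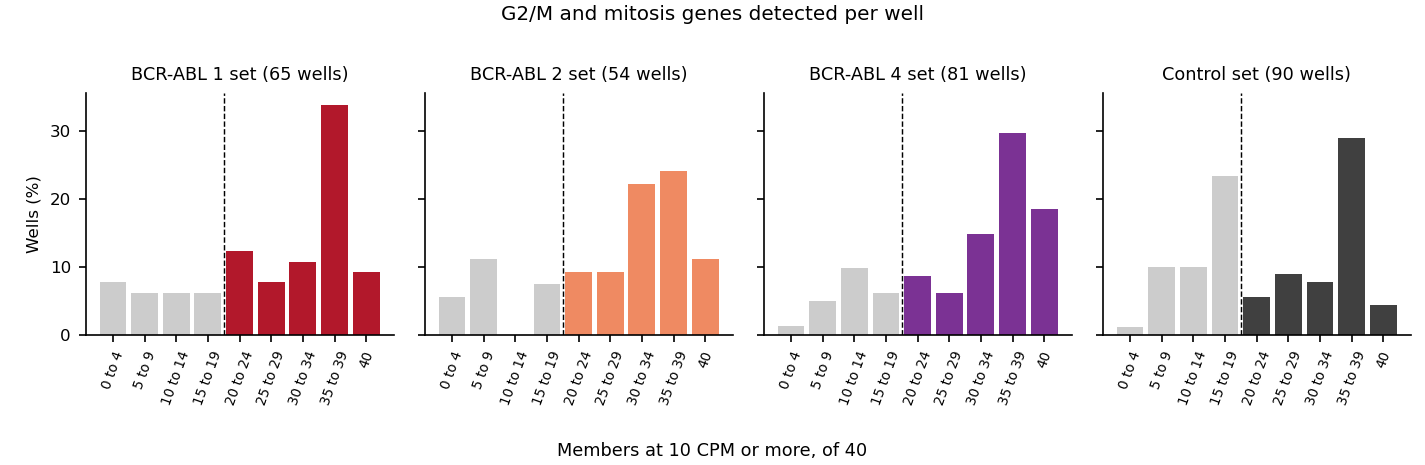
Share of wells, in percent, by the number of members at 10 CPM or more, for the 3 BCR-ABL sets and Control; coloured bars right of the dashed line are mitotic-high wells. Control has 21 wells at 15 to 19 members, just left of the line, against 4, 4 and 5 wells in BCR-ABL 1, 2 and 4.

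Most of the difference was also found at a higher limit. Wells with at least 30 members made up 53.8, 57.4 and 63% of the BCR-ABL sets and 41.1% of Control, whereas 10 or more members were found in 86.2, 83.3 and 93.8% against 88.9%, where the groups overlap and the difference turns round to -1.12 points. Near the limit, 2, 5 and 4 BCR-ABL wells and 10 Control wells held 18 to 21 members. Wells with at least 8000 genes detected after thinning, a limit chosen after seeing the data, gave mitotic-high shares of 78.6, 88.9 and 85.1% against 62.9%. Genes detected and RNA content moved with the share: thinned wells had medians of 8771, 8657 and 8771 genes against 8392, and 263, 263 and 226 gene reads per spike-in read against 203. Their part in the difference was not tested.

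Member by member, the share of wells at 10 CPM was above Control in all 3 BCR-ABL sets for 29 of 40 members (72.5%) and below it in all 3 for 2. Among 6332 genes whose mean share of wells lay within the range of the members, 42.3 to 98.5%, 43.9% were above in all 3 sets and 14.2% below. Within that range these genes were not matched to the members. The median difference was 7.82 points over the members and 3.29 points over those genes. It was largest for Plk1, detected in 63.1, 70.4 and 70.4% of BCR-ABL wells and 48.9% of Control wells. Ube2c followed at 70.8, 70.4 and 75.3% against 55.6%, then Kif2c, a microtubule-depolymerising kinesin, at 53.8, 53.7 and 60.5% against 40%, level with Kif20a and Ect2 in the size of the difference. Groups did not overlap for any of these. Ccnb2 and Mki67 were the 2 members below Control in all 3 sets, each 3.1 points lower in the mean of the BCR-ABL sets: Ccnb2 was detected in 75.4, 79.6 and 79% of BCR-ABL wells and 81.1% of Control wells. In the wells that held a member at 10 CPM, its mean level was below Control in all 3 BCR-ABL sets for 11 of 40 members (27.5%) and above it for 4 (10%). Among the 6332 genes with a share in the range of the members these were 43.5% and 13%. Ttk had both: it was detected in 61.5, 59.3 and 61.7% of wells against 45.6%, at a mean of 80.6, 90.2 and 75.9 CPM in those wells against 108 CPM.

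A mitotic score, the mean of log2(CPM + 1) over the 40 members in thinned wells, put the same cells on a continuous scale. It averaged 4.91, 4.89 and 5.44 in BCR-ABL 1, 2 and 4 and 4.66 in Control. The difference was 0.42 with an exact permutation p of 0.5 over the 4 sets, and it was 0.24 without BCR-ABL 4. Upper quartiles of 6.76, 6.52 and 7.17 lay around that of Control, 6.64, while medians of 5.10, 5.06 and 6.26 were above its 4.20. Single wells ran from 0.80 to 8.27, and the spread between wells of a set (SD 2.04 to 2.11) was several times the difference between sets.

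Members varied together from well to well. The within-set Spearman correlation of each member with the mean of the other 39, averaged over sets, ran from 0.49 for Ckap2, a microtubule-associated protein, to 0.87 for Ube2c, and Ccnb1, Birc5, Plk1 and Nusap1 were all at 0.83 or above. Ndc80, at 0.56, was among the loosest. Wells of 1 set share their source, and all members of a well share its depth, so these are descriptions. The 60 other mitotic genes followed the score at a rho of 0.97, 0.94 and 0.94 in the BCR-ABL sets and 0.91 in Control. Among 9390 genes with at least 5 CPM in every set, the non-members most like the score were Gm12856 (mean rho 0.81), Plk-ps1 (0.80), the tubulin genes Tuba1c (0.77), Tubb4b (0.77) and Tubb5 (0.73), the kinesin Kif22 (0.77), Gm7856 (0.73), the chromatin protein Hmgb2 (0.72), the spindle midzone protein Prc1 (0.72) and Prr11 (0.71). Gm12856, Plk-ps1 and Gm7856 are pseudogenes at 98.1, 93.5 and 93.7% identity to Ccnb1, Plk1 and Cdc20, so reads of the members may be counted in them.

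The gene most opposite to the score was Ung, the uracil-DNA glycosylase, with a mean rho of -0.63. Scn4b and Cst12 followed at -0.43 and -0.40, then Mcm4 and Mcm2, subunits of the replicative helicase, at -0.39 and -0.36. Against the score of 34 S phase genes the mitotic score had a rho of 0.00, -0.08 and -0.33 in BCR-ABL 1, 2 and 4 and -0.39 in Control. Mitotic-high wells had mean S phase scores of 6.34, 6.51 and 5.75 in the BCR-ABL sets, where the other wells had 5.35, 5.55 and 5.46. Control had 6.19 in mitotic-high wells and 6.49 in the others. So the mean S phase score of mitotic-high wells was above that of the other wells in each BCR-ABL set and below it in Control. BCR-ABL 4 had the smallest such gap of the BCR-ABL sets, and its rho of -0.33 was close to the -0.39 of Control. Wells of each set were also ranked by S phase score and cut into 3 near-equal parts. From the highest part to the lowest, mitotic-high shares were 86.4, 77.3 and 57.1% in BCR-ABL 1 and 83.3, 77.8 and 66.7% in BCR-ABL 2. In BCR-ABL 4 the share was 77.8% in every part, and in Control 53.3, 43.3 and 70%. The plot of both scores differed in shape between sets. From the part with the highest S phase scores to the lowest, mean mitotic scores were 4.68, 5.58 and 4.44 in BCR-ABL 1. They were 4.8, 5.05 and 4.81 in BCR-ABL 2, so in both sets the middle part was highest. In BCR-ABL 4 they were 4.75, 5.51 and 6.06, and in Control 3.89, 4.27 and 5.81. In these sets the mitotic score rose from part to part as the S phase score fell. Wells low in both, with an S phase score under 5 and a mitotic score under 3, limits chosen after seeing the plot, numbered 6 of 65, 4 of 54 and 6 of 81 in the BCR-ABL sets and 0 of 90 in Control. The shares are 9.23% (exact 95% interval 3.46 to 19), 7.41% (2.06 to 17.9) and 7.41% (2.77 to 15.4), while 0 of 90 has an exact interval up to 4.02%, so all 3 BCR-ABL intervals overlap it. These intervals cover counting error only. Of these wells 6, 4 and 5 were Gfi1-positive and Irf8-negative. They had fewer genes after thinning, with medians of 7460, 6930 and 7820 against 8880, 8660 and 8850 in the other wells of the same sets, and less RNA, with 126, 78.4 and 163 gene reads per spike-in read against 268, 283 and 241. Their median primary granule scores were 10.8, 10.4 and 10.7 against 9.87, 9.54 and 10.3. In all, wells with Gfi1 and without Irf8 numbered 35, 17 and 62 in the BCR-ABL sets but only 9 in Control. The part of this imbalance in the 0 of Control was not tested.

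**Figure D3:**
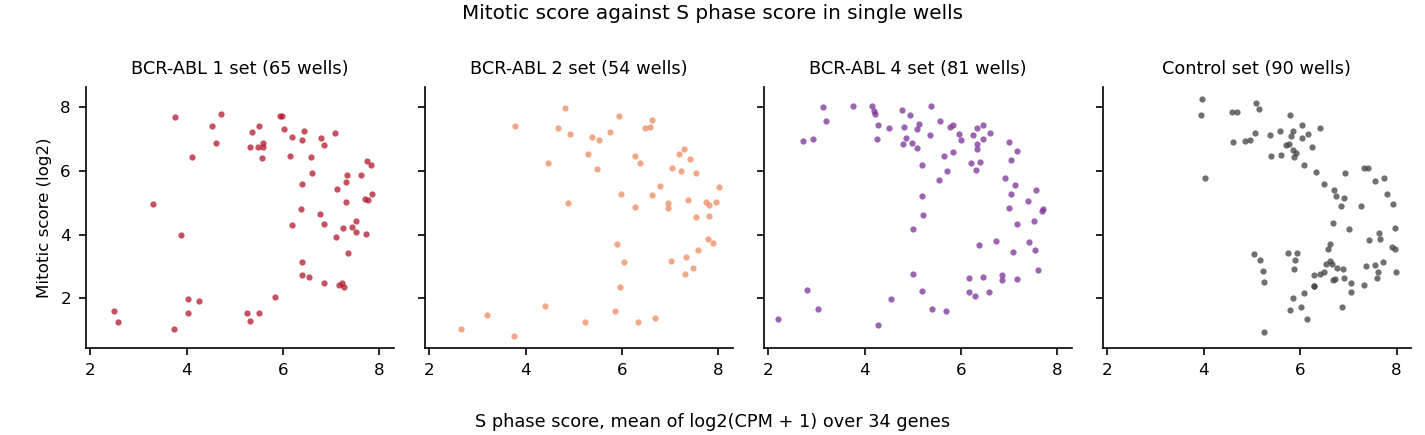
Mitotic score (vertical axis, log2) against S phase score (horizontal axis, log2) in thinned wells, 1 point per well, for the 3 BCR-ABL sets and Control. Wells with an S phase score under 5 and a mitotic score under 3 lie at the lower left. They number 6, 4 and 6 in the BCR-ABL sets and 0 in Control. Most of them are Gfi1-positive and Irf8-negative, a class with 35, 17 and 62 wells in the BCR-ABL sets and 9 in Control.

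The next comparison took wells that express the same fate gene, because Control holds more wells with Irf8, the transcription factor of the monocyte path, and the BCR-ABL sets more with Gfi1, that of the neutrophil path. With at least 10 reads after thinning, Gfi1-positive wells numbered 47, 36 and 77 in the BCR-ABL sets and 36 in Control, and Irf8-positive wells 27, 33 and 15 against 77. Wells positive for both genes are in both counts. In sums over Gfi1-positive wells, 31 of 40 members had a positive fold change, against 56.1% of 18720 genes, with a median log2 value of 0.22 over the members and 0.08 over all genes. By edgeR 0 members and 0 genes (0.0%) passed at an adjusted p of 0.05. At an unadjusted p under 0.05, 3 members were higher, against 6.35% of all genes, and 0 were lower, against 3.48%, or 1840 genes in either direction (9.83%). DESeq2 called 787 genes (4.2%) and 0 members. At an unadjusted p under 0.05 DESeq2 had 7 members higher, against 8.98% of all genes. By edgeR this count was 1 with at least 3 Gfi1 reads, against 6.18% of all genes, and 7 with at least 30, against 7.27%. The 3 members higher by edgeR at 10 Gfi1 reads were Tpx2, which activates Aurora A on the spindle (0.57, edgeR unadjusted p 0.0194), Plk1 (0.62, 0.0298) and Ndc80 (0.51, 0.0439).

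In sums over Irf8-positive wells, 28 of 40 members were above 0, against 51.7% of 17989 genes, with a median of 0.17 against 0.02. Here too edgeR called 0 members and 0 genes (0.0%), and 1 member, Gtse1, had an unadjusted p under 0.05 (log2 fold change 0.66, p 0.0383), against 2.35% of genes higher and 2.7% lower, or 909 genes in either direction (5.05%). DESeq2 called 263 genes (1.46%) and 0 members. Without BCR-ABL 4, which gave only 15 wells, the median over the members turned to -0.04, and in Gfi1-positive wells it was 0.07. The largest log2 fold changes in Irf8-positive wells belonged to Sapcd2 (0.95) and Ect2 (0.90), and neither had a p under 0.05.

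**Figure D4:**
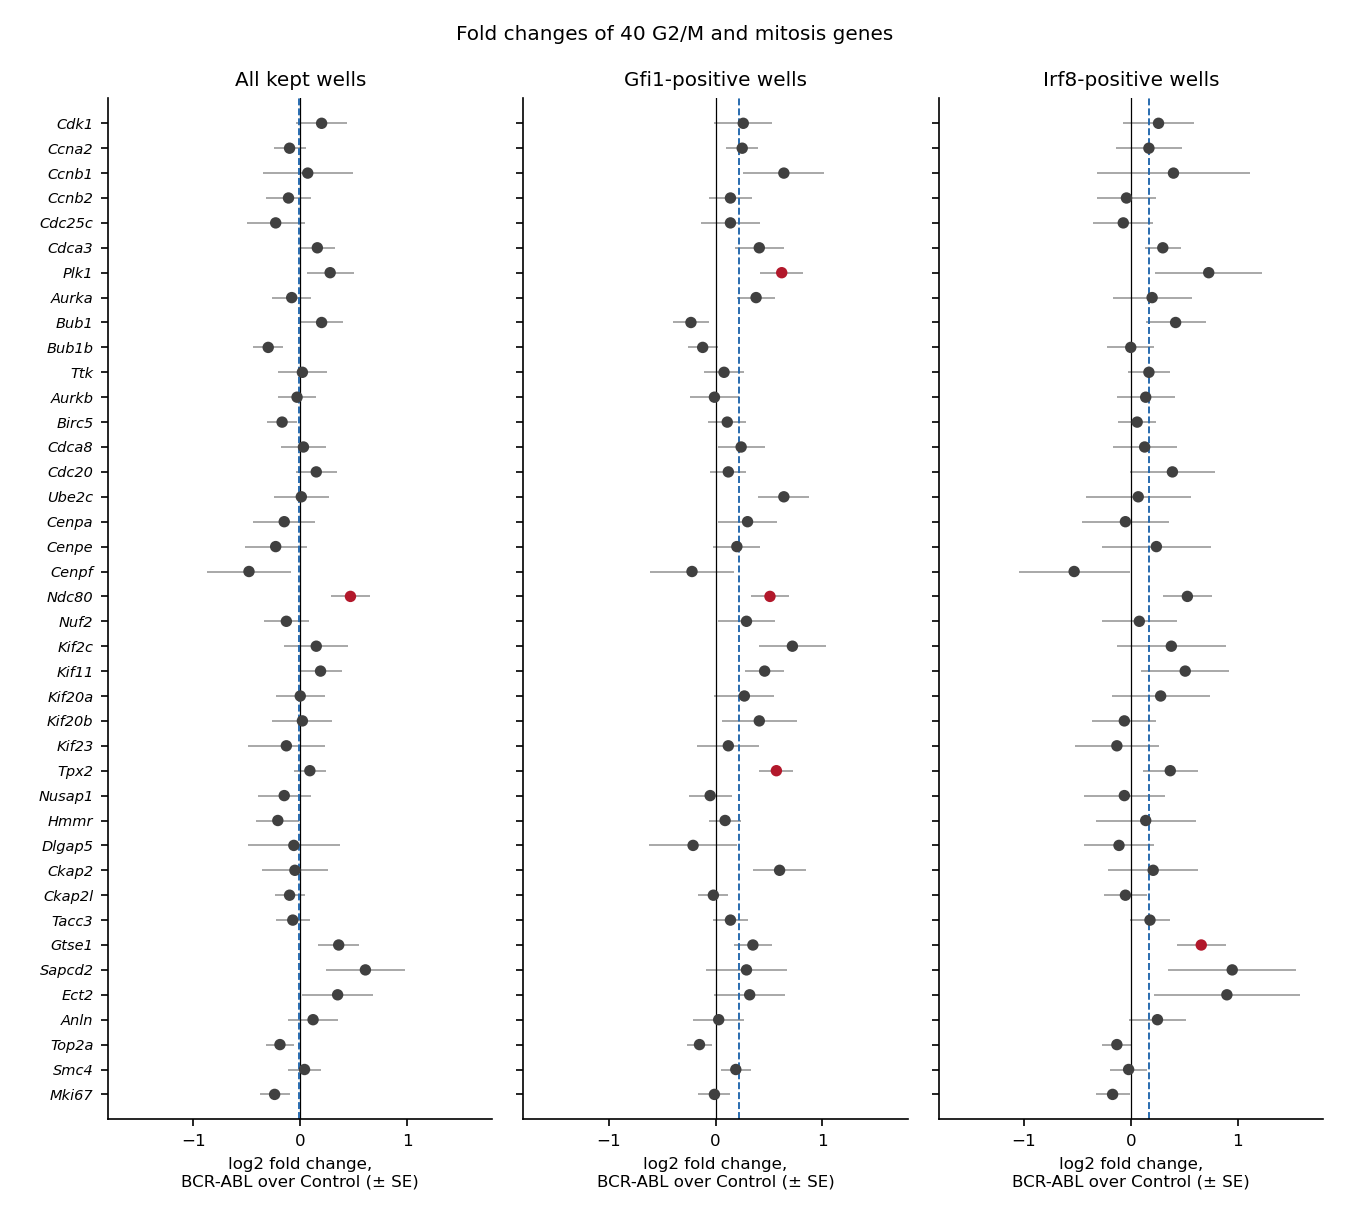
Log2 fold change of BCR-ABL over Control for the 40 members (points) with its SE (bars) in all kept wells, Gfi1-positive wells and Irf8-positive wells. Red points have an unadjusted p under 0.05 and the dashed blue line is the median of the members, at -0.01, 0.22 and 0.17.

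Counting wells within these fates, mitotic-high wells made up 92.6, 81.8 and 80% of Irf8-positive wells in BCR-ABL 1, 2 and 4, and 53.2% in Control (exact 95% interval 41.5 to 64.7). The lower bounds for the BCR-ABL sets were 75.7, 64.5 and 51.9%. The intervals of BCR-ABL 2 and BCR-ABL 4 overlapped that of Control and that of BCR-ABL 1 did not. These intervals cover counting error within a set only, so they do not compare the conditions. No test over sets was run on the shares within fates. In Gfi1-positive wells the shares were 66, 66.7 and 76.6% against 61.1% (43.5 to 76.9), and all 4 intervals overlapped. In wells with Irf8 and without Gfi1 the shares were 14 of 15 wells in BCR-ABL 1, 13 of 14 in BCR-ABL 2 and 25 of 50 in Control, and BCR-ABL 4 had 0 such wells. In wells with Gfi1 and without Irf8 they were 57.1, 58.8 and 75.8% against 6 of 9 Control wells. Whether the gap differs between the fates was not tested.

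**Figure D5:**
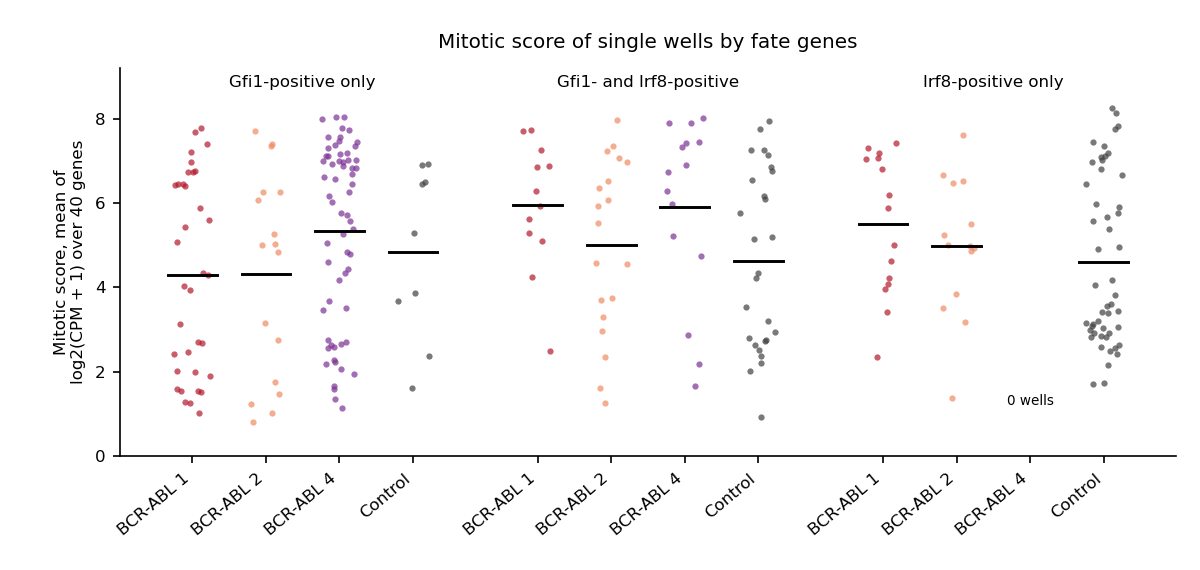
Mitotic score of single thinned wells (points, jittered sideways) by set, for wells with at least 10 reads of Gfi1 only, of both genes or of Irf8 only; black lines are means. Among wells positive for Irf8 only, the means are 5.51 and 4.98 in BCR-ABL 1 and 2 and 4.60 in Control, and BCR-ABL 4 has 0 wells.

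Within a set, correlations of the score with maturation were weak. Its rho with the score of late granule and mature neutrophil genes was -0.02, 0.03 and 0.05 in the BCR-ABL sets and 0.05 in Control. Of those genes 14 of 15 tested had a positive fold change, with a median log2 value of 1.60, where 54.2% of all genes had a positive one. With primary granule genes, of which 10 of 10 had a positive fold change, it was -0.13, -0.15 and 0.00 against -0.02. In BCR-ABL 1 and 2 the third of wells with the most primary granule RNA held the fewest mitotic-high wells, 54.5 and 55.6%, against 90.5 and 88.9% in the third with the least. In BCR-ABL 4 these shares were 74.1 and 85.2%, and in Control 63.3 and 56.7%, the opposite order. With monocyte genes, of which 16 of 16 had a negative fold change, the rho was 0.38, 0.10 and 0.33 against 0.08. With early progenitor genes, of which 4 of 10 had a positive fold change, it lay between -0.04 and 0.08 in all 4 sets. Kit, the stem cell factor receptor of the gate, had a rho of -0.51, -0.23 and -0.11 in the BCR-ABL sets and 0.00 in Control.

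RNA content and complexity moved with the score in every set. Its rho with the number of genes in a thinned well was 0.69, 0.66 and 0.60 in the BCR-ABL sets and 0.64 in Control, and with gene reads per spike-in read 0.62, 0.48 and 0.43 against 0.47. Mitotic-high wells held 1.79, 2.05 and 1.36 times as many gene reads per spike-in read as the other wells of the BCR-ABL sets and 1.43 times in Control.

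The transcription regulators that act at these promoters differed from one another. Mybl2, or B-Myb, the activating partner of MuvB at G2/M promoters, stood at 66.1, 73 and 80.6 CPM in BCR-ABL 1, 2 and 4 and at 32 CPM in Control. All 3 BCR-ABL sets were above Control, by more than the spread between them (73.2 ± 7.25 CPM, SD, n = 3). The log2 fold change was 1.21 (SE 0.19, 95% interval 0.71 to 1.71), with an edgeR unadjusted p of 0.00193 and an adjusted p of 0.594, while DESeq2 called it at an adjusted p of 9.9e-06. It was detected at 10 CPM in 75.4, 75.9 and 82.7% of BCR-ABL wells and 45.6% of Control wells. In Gfi1-positive wells its log2 fold change was 1.05 (SE 0.20) and in Irf8-positive wells 1.22 (SE 0.27). DESeq2 called both, at adjusted p-values of 0.000971 and 0.00863, and edgeR neither, at adjusted p-values of 0.361 and 0.937. Foxm1, the forkhead factor that acts at the same promoters later in G2, stood at 27.4, 28.2 and 54.4 CPM against 40.1 CPM, with the groups overlapping (log2 fold change -0.12, SE 0.45). Within sets it was Foxm1 that tracked the module. Foxm1 followed the mitotic score at a rho of 0.61, 0.58 and 0.50 in the BCR-ABL sets and 0.59 in Control, whereas Mybl2 was at 0.07, 0.10 and -0.02 against 0.12. Of the 18 regulators 10 had a positive fold change, against 54.2% of all genes. Mybl2 was the 1 with an edgeR unadjusted p under 0.05 and the 1 that DESeq2 called.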

How the data were processed

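The deposited counts, made by the authors, are reads per Ensembl gene and well, without normalisation. The submitters' processing notes name GSNAP, HTSeq 0.5.3p3 and the mm10 build; no source used here gives the annotation release, the strand setting or read filters. The authors' sets were grouped by the treatment label. Symbols came from a GRCm38 annotation (45143 of 46078 identifiers matched). Gene reads were 44.9% of the total; unaligned reads (40.91%), reads outside features (7.67%), ambiguous reads (6.24%) and spike-ins (0.26%) entered neither library sizes nor tests.

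Wells with under 50000 gene reads or 1000 genes were left out, which left 323 of 384. No kept wells were identical. Doublets were not called, since the sort placed single cells in wells. Counts were summed per set and tested with edgeR 4.0.16 (quasi-likelihood, TMM, filterByExpr, Benjamini-Hochberg, threshold 0.05) in R 4.3.3. The 2 residual degrees of freedom come from the BCR-ABL sets, so Control, a single set, is taken to vary as they do; set and condition cannot be told apart for Control. Tested on simulated counts of 20324 genes at the fitted coefficient of variation of 0.68, edgeR found 0 of 67 genes moved by 1 on the log2 scale, 0 of 67 moved by 2 and 4 of 66 moved by 4; at 0.1 it found 65.7, 86.6 and 98.5%. DESeq2 1.42.0 at 0.68 found 1, 4 and 45, with 159 false calls against 1 by edgeR. Each run gave all genes the same coefficient, so the runs do not give the power for the members. In all kept wells the SEs of the members ran from 0.13 (Top2a) to 0.43 (Dlgap5).

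Scores, shares and fates used wells thinned to 674952 reads, the 10 percentile, leaving out 33 of the kept wells; Gfi1- and Irf8-positive means at least 10 reads after thinning. Scores use log2(CPM + 1). Intervals are exact (Clopper-Pearson, 95%) and cover counting error only. Near-identical copies were found with blastn 2.17.0, and promoters are RefSeq's. Limma 3.58.1, other scalings, filters, depths, limits and left-out sets were alternatives. The members and the other gene lists (other mitotic genes, transcription regulators, S phase, monocyte, primary granule, late granule, early progenitor and other lineages) were chosen with earlier results of these data known. Named with values by set are the 10 members with the smallest p and Cdk1, Ccnb1, Ccnb2, Ccna2, Plk1, Aurka, Aurkb, Cdc20, Bub1b, Mki67, Top2a, Birc5, Cenpf and Sapcd2; up to 4 genes of each other list with the smallest p; and the 10 non-members most like the score. Foxm1, Ung, Mcm2, Mcm4, Kit, Kif2c, Ttk and Ube2c were chosen after their values had been seen.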

Additional observations from a re-analysis of the deposited data

Results flagged for a closer look

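Bub1, the checkpoint kinase, was above Control in all 3 BCR-ABL sets in Irf8-positive wells (log2 fold change 0.42) and below it in all 3 in Gfi1-positive wells (-0.23). Bub1 thus lay on opposite sides of Control in the 2 fates. Both values rest on the single Control set, at 67.3 CPM in Irf8-positive and 89.3 CPM in Gfi1-positive wells. The difference between the fates was not tested, and wells positive for both genes enter both values. Neither fold change had an edgeR unadjusted p under 0.05 (0.196 and 0.237). Of the 40 members Bub1 was the only one with this pattern. How many of all genes share it was not counted, so it is not known to be rare.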

How the results depend on the processing

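For the members called, 0 in each of the 3 comparisons was found under each alternative run. The count of all genes called was 0 with edgeR and limma-voom under each alternative and moved to 562 in all kept wells, 787 in Gfi1-positive wells and 263 in Irf8-positive wells with DESeq2. Over the sums that leave out 1 BCR-ABL set each, the median log2 fold change of the members ran from -0.14 to 0.04 in all kept wells, from 0.07 to 0.28 in Gfi1-positive wells and from -0.04 to 0.30 in Irf8-positive wells. At least 3 or 30 Gfi1 reads gave 0.12 or 0.35, and at least 3 or 30 Irf8 reads 0.19 or 0.10. Members higher at an unadjusted p under 0.05 in Gfi1-positive wells numbered 7 with DESeq2, and 1 and 7 with at least 3 and 30 Gfi1 reads, against 3 with edgeR at 10 reads. The share of mitotic-high wells differed by -1.12 points with a limit of 10 members, 17 points with 30 members, 16.3 points at 5 CPM and 14.5 points in wells not thinned, and by 19.3 to 21.3 points without 1 BCR-ABL set each. The score difference was 0.16 in wells not thinned, 0.12 as log2 of summed CPM, 0.26 with a pseudocount of 10 and 0.24 to 0.52 without 1 BCR-ABL set each. Of 17 members given by set, 5 changed sign: Aurka (0.11), Aurkb (0.14) and Hmmr (0.01) in thinned wells, and, leaving out 1 BCR-ABL set each, Aurkb (-0.13 to 0.05), Ccnb2 (-0.22 to 0.01) and Ccnb1 (-0.25 to 0.27). The cause of these differences between settings was not tested. No paired analysis was possible because the groups share fewer than 2 replicate numbers. Shares of wells at 10 CPM rest on few reads per gene in a thinned well.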
